A study of Mus musculus with 7 samples.

Results

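A set of 10 genes of fibroblasts and of the matricellular matrix was followed through 7 mouse colon tumors: *Dcn*, *Lum*, *Vcan*, *Fap*, *Thy1*, *Postn*, *Sparc*, *Fstl1*, *Ccdc80* and *Mfap5*. They were chosen by name as non-collagen products of fibroblasts, with earlier results of these data known. All 10 were found among the 43346 genes of the count table. Fibroblasts lay down the connective tissue of the colon wall and of tumors, and several of these genes are common labels of that cell type in tumor tissue. Decorin, lumican and versican are proteoglycans of the matrix between cells. Matricellular proteins are secreted into the matrix and act on cells rather than building fibers.

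Each tumor came from a wild-type C57BL6/J recipient whose blood system had been replaced by transplanted bone marrow (BM) after lethal irradiation. The BM donors were Dnmt3a(+/+) in 3 mice and Dnmt3a(+/-) in 4 mice, and the groups are named Dnmt3a(+/+)-BM and Dnmt3a(+/-)-BM after them. Dnmt3a is a DNA methyltransferase, and heterozygous loss of it in blood cells models clonal hematopoiesis. Donors of both groups carried the *Mx1*-Cre deleter and received poly(I:C), which switches on the interferon-driven *Mx1* promoter, so the controls share Cre and its inducer. The recipients' own non-blood cells were wild type in both groups. The labels give a recipient age of 8 weeks, whereas the methods give a younger age and congenic CD45.1 recipients. Mice of both sexes were used in the study. To bring on colitis-associated cancer, every recipient was injected once with azoxymethane (10 mg/kg), a mutagen of the colon, and then drank 3% dextran sulfate sodium, which injures the colon lining, in 3 cycles.

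The tumors came from 2 transplantation experiments. BMT18 holds replicates 1 and 2 of each group, and BMT8 holds Dnmt3a(+/+)-BM replicate 3 and Dnmt3a(+/-)-BM replicates 3 and 4. Polyadenylated RNA of whole tumors was sequenced, to between 38472738 and 64314999 counts per tumor. Values are CPM, the count of a gene relative to all counts of its tumor, on library sizes scaled by the trimmed mean of M-values (TMM), and group differences are log2 fold changes of Dnmt3a(+/-)-BM over Dnmt3a(+/+)-BM. *Dnmt3a* itself was at 20.2 to 24.3 CPM with Dnmt3a(+/+) BM and at 22.0 to 43.0 CPM with Dnmt3a(+/-) BM, and since grafted cells are a part of a whole tumor this does not check the graft. Dnmt3a(+/-)-BM replicate 2 stood apart from the other tumors, at 111 on a first principal component (42.9% of the variance) where the others reached at most 36.6. In Dnmt3a(+/+)-BM replicate 3 the 9 smooth muscle markers summed to the lowest value, with *Myh11*, the heavy chain of smooth muscle myosin, at 0.73 CPM against 26.3 to 297 CPM in the other 6 tumors. *Smtn*, another of them, was at 19.8 CPM there, inside the range of the others. A lower value in a whole tumor can come from fewer cells of a type or from less RNA per cell, and these cannot be told apart.

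Of the 10 genes, 8 had enough counts to be tested among 15810 genes, and *Fap* and *Mfap5* did not. With edgeR's quasi-likelihood test, 0 of the 8 reached the call used here, a Benjamini-Hochberg adjusted p under 0.05 and a log2 fold change over 1 in size, and 0% of all genes tested did. Of all genes, 1744 had an unadjusted p under 0.05 from edgeR, and DESeq2 called 299. All 8 log2 fold changes were above 0, against 50.2% of all genes tested, with a median of 0.74 against 0.0025 over all genes. *Ccdc80* alone had an unadjusted p under 0.05, 1 of 8 genes, where 5.83% of all genes had such a p and were higher with Dnmt3a(+/-) BM. The highest of the 7 tumors was Dnmt3a(+/-)-BM replicate 2 in 8 of the 8 genes, against 24.7% of all genes, so the 8 differences share 1 tumor. Without that tumor the median of the 8 was 0.22, and 7 of them were above 0.

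**Figure D1:**
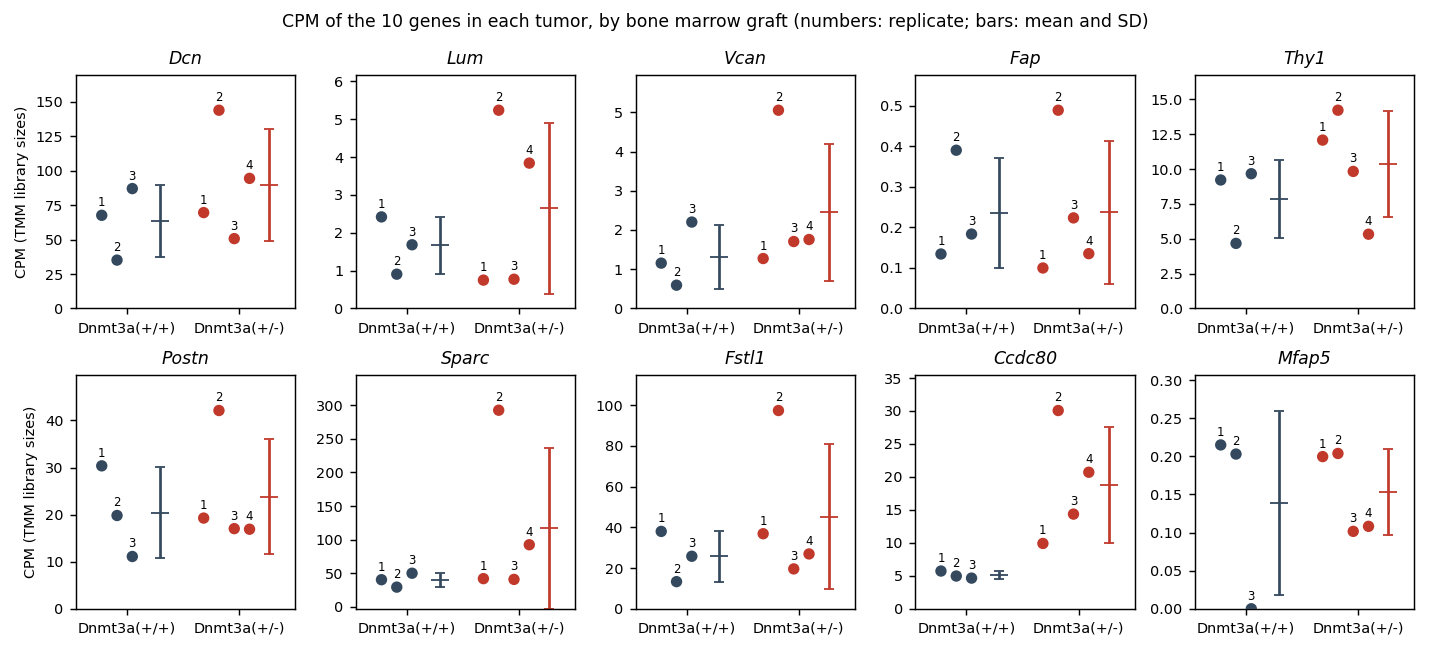
CPM (vertical axes, TMM library sizes) of the 10 genes in each tumor, with Dnmt3a(+/+)-BM in dark blue and Dnmt3a(+/-)-BM in red, the replicate number over each point and a bar for the mean and SD of each group (n = 3 and n = 4). *Ccdc80* is the gene whose groups do not overlap, and Dnmt3a(+/-)-BM replicate 2 is the highest point in every panel but that of *Mfap5*.

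Promoter sequence is shown for 2 of the genes, *Postn* and *Vcan*. *Postn* had the group difference closest to 0 of the 8 genes tested. The direction of *Vcan*, like that of *Dcn*, *Fstl1* and *Thy1*, was opposite in the 2 experiments. RefSeq promoter windows on GRCm38.p6 were matched for 4 of the 10 genes, *Postn*, *Vcan*, *Fstl1* and *Sparc*. The 120 bases before the start are shown for *Postn* and *Vcan*, 5′ to 3′ on the gene's own strand, with motif matches in capitals.
*Postn*, chr3:54360987-54361106, plus strand: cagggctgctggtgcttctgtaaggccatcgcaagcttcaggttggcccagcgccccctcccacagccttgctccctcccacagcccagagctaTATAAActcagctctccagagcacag
*Vcan*, chr13:89742513-89742632, minus strand: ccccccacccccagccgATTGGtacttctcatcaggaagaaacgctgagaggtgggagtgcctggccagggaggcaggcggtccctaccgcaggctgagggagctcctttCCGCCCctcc
The capitals in *Postn* mark a TATA box (TATAAA, either strand) at bases -26 to -21 from the start, a motif held by 12.4% of the 32851 promoter windows in the 250 bases before the start. In *Vcan* they mark the reverse of a CCAAT box (CCAAT or ATTGG, held by 33.8%) at -103 to -99 and of a GC box (GGGCGG or CCGCCC, held by 32.7%) at -10 to -5. The 250 bases before the start were 52.0% G and C in the *Postn* window shown and 62.4% in *Vcan*, with a median of 52.4% over all windows. *Postn* had another window, with the 250 bases chr3:54359017-54359266 before its start. These were 40.4% G and C and held no motif match. A match describes the letters and is not a site of binding.

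*Ccdc80* encodes a secreted protein of the extracellular matrix, and it had the largest group difference of the 8 genes tested. Its CPM was 5.72, 4.96 and 4.65 in Dnmt3a(+/+)-BM replicates 1 to 3. In Dnmt3a(+/-)-BM replicates 1 to 4 it was 9.91, 30.1, 14.4 and 20.7. All 4 Dnmt3a(+/-)-BM tumors thus lay above all 3 Dnmt3a(+/+)-BM tumors, a pattern seen in 6.12% of all genes tested. The means were 5.11 ± 0.55 CPM (SD, n = 3) and 18.8 ± 8.75 CPM (SD, n = 4). The 3 control tumors sat close together, and the Dnmt3a(+/-)-BM tumors were spread more widely.

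The log2 fold change of *Ccdc80* was 1.88 with a standard error of 0.39, which is 3.67-fold. From edgeR the unadjusted p was 0.00155, rank 54 among 15810 genes, and the adjusted p was 0.361, the lowest of all genes and shared by 328 of them. DESeq2 gave an adjusted p of 0.000997 and called *Ccdc80*, the 1 call among the 10 genes, where it called 1.48% of genes as higher. The exact permutation test on log2 CPM, two-sided, gave p = 0.0571, the smallest that 4 tumors against 3 allow.

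No single tumor carried the difference in *Ccdc80*. With each tumor left out in turn the log2 fold change was between 1.58 and 2.11, and it was 1.58 without Dnmt3a(+/-)-BM replicate 2. In the 7 DESeq2 fits with a tumor left out, its adjusted p was between 8.92e-07 and 0.0383. Within BMT18 the group means were 5.34 and 20.0 CPM, and within BMT8 they were 4.65 CPM, in 1 tumor, and 17.5 CPM. As a log2 ratio of means that was 1.90 in BMT18 and 1.92 in BMT8.

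*Ccdc80* was also set against decorin, a general fibroblast product, within each tumor, as 1 of 5 such ratios. The ratio of *Ccdc80* CPM to *Dcn* CPM was 0.0846, 0.141 and 0.0534 in the 3 Dnmt3a(+/+)-BM tumors. It was 0.142, 0.209, 0.283 and 0.219 in the 4 Dnmt3a(+/-)-BM tumors. The groups did not overlap in this ratio, but Dnmt3a(+/+)-BM replicate 2 and Dnmt3a(+/-)-BM replicate 1 nearly met. The two-sided exact permutation p, not adjusted for the 5 ratios, was 0.0571, the smallest possible, and between 0.229 and 0.743 for the other 4.

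Markers of other cell types were examined beside *Ccdc80*. The summed CPM of 7 endothelial markers, which label the lining of blood vessels, was 15.2 to 30.2 with Dnmt3a(+/+) BM and 32.4 to 124 with Dnmt3a(+/-) BM, without overlap. *Pecam1*, *Kdr*, *Cdh5* and *Tek* had an unadjusted p under 0.05 from edgeR and were higher, 4 of the 7 against 5.83% of all genes, and 0 of the 7 were under 0.1 CPM in every tumor. The adjusted p from edgeR was over 0.05 for each, whereas that from DESeq2 was 0.0364 for *Pecam1*, 0.0330 for *Cdh5* and 0.0331 for *Kdr*. The 10 epithelial markers summed to 20459 to 39609 CPM with Dnmt3a(+/+) BM and 11290 to 25189 CPM with Dnmt3a(+/-) BM, with overlap. Of the 10, *Lgals4* and *Elf3* had an unadjusted p under 0.05 and were lower, 2 of 10 against 5.20% of all genes. The part of these cell types in the *Ccdc80* difference was not tested.

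**Figure D2:**
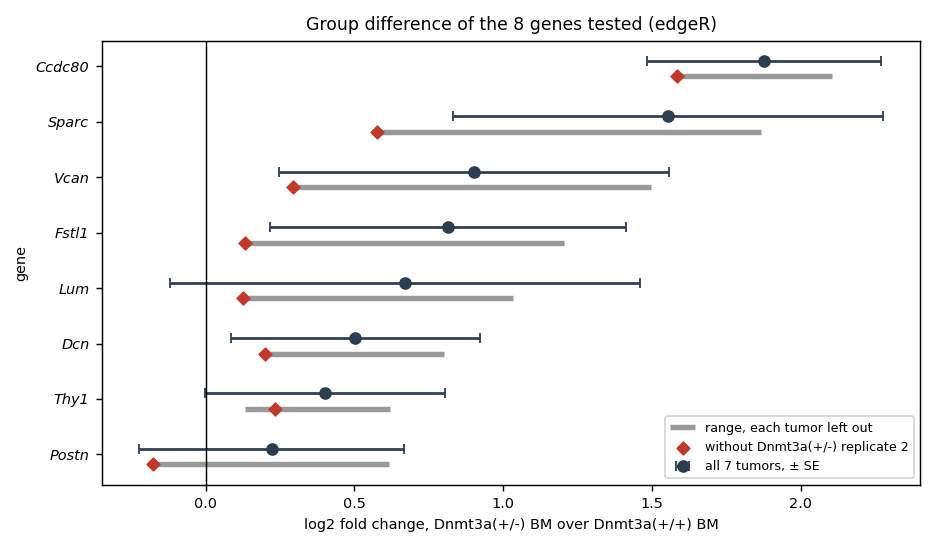
Log2 fold change of the 8 genes tested (horizontal axis; edgeR, all 7 tumors, bars for the standard error), with the range when each tumor is left out in grey and the value without Dnmt3a(+/-)-BM replicate 2 as a red diamond. *Ccdc80* stays between 1.58 and 2.11, whereas *Sparc* goes from 1.55 to 0.58 and *Postn* from 0.22 to -0.18 without that tumor.

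*Sparc* encodes osteonectin, a collagen-binding matricellular protein made by fibroblasts and by endothelial cells. Its CPM was 40.3, 29.3 and 49.9 in the Dnmt3a(+/+)-BM tumors. In the Dnmt3a(+/-)-BM tumors it was 41.9, 293, 40.8 and 92.4. Replicates 2 and 4 were above all controls, and replicates 1 and 3 were within the range of the controls. The log2 fold change was 1.55 with a standard error of 0.72, and the adjusted p was 0.481 with edgeR and 0.236 with DESeq2. Without Dnmt3a(+/-)-BM replicate 2 it was 0.58, and without replicate 1 it was 1.87. The ratio of *Sparc* to *Dcn* CPM was 2.03 in Dnmt3a(+/-)-BM replicate 2 and between 0.574 and 0.978 in the other 6 tumors.

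*Fstl1* encodes a secreted glycoprotein of the follistatin family. Its CPM was 38.0, 13.3 and 25.8 with Dnmt3a(+/+) BM. With Dnmt3a(+/-) BM it was 36.9, 97.4, 19.6 and 26.9. Apart from replicate 2, the Dnmt3a(+/-)-BM tumors lay inside the range of the controls. Its log2 fold change was 0.82 with a standard error of 0.60 (adjusted p = 0.640 from edgeR), and 0.13 without replicate 2.

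*Postn* encodes periostin, a matricellular protein that binds integrins and is made by activated fibroblasts. Its CPM was 30.4, 19.8 and 11.1 with Dnmt3a(+/+) BM. It was 19.3, 42.1, 17.0 and 16.9 with Dnmt3a(+/-) BM. The groups overlapped through most of their range, and the log2 fold change was 0.22 with a standard error of 0.44 (adjusted p = 0.898 from edgeR). The sign turned to -0.18 without Dnmt3a(+/-)-BM replicate 2 and to -0.070 without Dnmt3a(+/+)-BM replicate 3.

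Of the small leucine-rich proteoglycans, decorin binds collagen fibrils and growth factors such as TGF-β. *Dcn* was at 67.7, 35.1 and 87.1 CPM with Dnmt3a(+/+) BM. With Dnmt3a(+/-) BM it was at 69.6, 144, 50.7 and 94.5 CPM. The log2 fold change was 0.50 with a standard error of 0.42 (adjusted p = 0.684 from edgeR), and it was 0.20 without Dnmt3a(+/-)-BM replicate 2 and 0.21 without Dnmt3a(+/+)-BM replicate 2, the tumor with the lowest value. The 2 groups therefore differed in *Dcn* by less than the spread between tumors.

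Lumican, the close relative of decorin, shapes collagen fibrils. *Lum* was at 2.42, 0.91 and 1.68 CPM with Dnmt3a(+/+) BM. It was at 0.75, 5.24, 0.77 and 3.84 CPM with Dnmt3a(+/-) BM, so that replicates 2 and 4 were above all controls and replicates 1 and 3 below all of them. The log2 fold change was 0.67 with a standard error of 0.79 (adjusted p = 0.802 from edgeR), and 0.13 without Dnmt3a(+/-)-BM replicate 2. The ratio of *Dcn* to *Lum* CPM ran from 24.6 in Dnmt3a(+/-)-BM replicate 4 to 93.0 in Dnmt3a(+/-)-BM replicate 1, the 2 extremes being in the same group.

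*Dcn* and *Lum* are neighbors on chromosome 10 of GRCm38, *Dcn* from 97479609 to 97518143 and *Lum* from 97565128 to 97572703, 47 kb apart. *Kera* and *Epyc*, the next members of the same family in this cluster, held 3 and 7 counts in the 7 tumors together. Per exonic length *Dcn* was at 6.02 to 24.7 and *Lum* at 0.31 to 2.14 RPKM (CPM per kilobase of exon), without overlap.

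Versican, a large proteoglycan that binds hyaluronan, was low. *Vcan* was at 1.16, 0.59 and 2.20 CPM with Dnmt3a(+/+) BM. It was at 1.27, 5.05, 1.71 and 1.76 CPM with Dnmt3a(+/-) BM. The log2 fold change was 0.90 with a standard error of 0.65 (adjusted p = 0.638 from edgeR), and 0.30 without Dnmt3a(+/-)-BM replicate 2. In BMT18 both Dnmt3a(+/-)-BM tumors were above both controls, and in BMT8 both were below the 1 control. The interaction of group and experiment was -2.21 on the log2 scale (edgeR, adjusted p = 1.00), so this opposite order did not pass a test.

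Of the surface proteins, *Thy1* had enough counts to be tested. It encodes a surface glycoprotein of fibroblasts, T cells and neurons. *Thy1* was at 9.22, 4.67 and 9.67 CPM with Dnmt3a(+/+) BM and at 12.1, 14.2, 9.83 and 5.33 CPM with Dnmt3a(+/-) BM. Replicates 1 to 3 with Dnmt3a(+/-) BM were above all controls and replicate 4 was near the lowest control. For *Thy1* the log2 fold change was 0.40, its standard error also 0.40 (adjusted p = 0.748 from edgeR), and it was 0.23 without Dnmt3a(+/-)-BM replicate 2.

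The experiments were also compared for the other genes tested, as the log2 ratio of group means, with 1 control tumor in BMT8. For *Sparc* it was 2.27 in BMT18 and 0.41 in BMT8, and for *Lum* 0.85 and 0.45. For *Dcn* it was 1.06 and -0.26, for *Fstl1* 1.39 and -0.15, and for *Thy1* 0.92 and -0.35. *Postn* alone of these 6 had the smaller value in BMT18, at 0.29 against 0.61. The sign was thus the same in both experiments for *Ccdc80*, *Sparc*, *Lum* and *Postn*, and BMT18 is the experiment that holds Dnmt3a(+/-)-BM replicate 2. With the experiment as a covariate edgeR called 0 of the 8 genes.

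*Fap* encodes fibroblast activation protein, a surface protease that often marks fibroblasts of carcinomas. It was close to the limit of these libraries, with 5, 25 and 6 counts in the Dnmt3a(+/+)-BM tumors. In the Dnmt3a(+/-)-BM tumors it had 4, 24, 11 and 5 counts. That is 0.10 to 0.49 CPM in all 7 tumors, and replicate 2 of each group was the highest of its group. *Mfap5* encodes a glycoprotein of microfibrils. It had 8, 13 and 0 counts with Dnmt3a(+/+) BM, and the 0 allows up to 0.0917 CPM at the level of 3 counts. With Dnmt3a(+/-) BM it had 8, 10, 5 and 4 counts. Neither gene passed the filter on low counts, and a difference between the groups was not detectable at this depth.

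**Figure D3:**
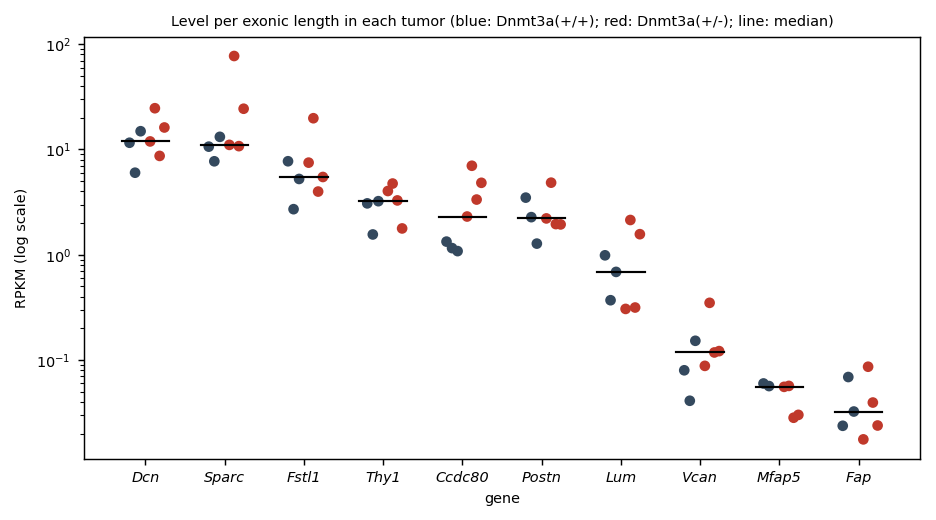
RPKM (log axis) of the 10 genes in each tumor, in the order of their medians (black lines), with Dnmt3a(+/+)-BM in dark blue and Dnmt3a(+/-)-BM in red. *Dcn* and *Sparc* lead at medians of 11.9 and 11.1, and *Fap* is lowest at 0.032. The tumor with 0 counts of *Mfap5* cannot be drawn on this axis.

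Levels of different genes were compared per exonic length, as RPKM over the 7 tumors. *Dcn* had a median of 11.9 RPKM and *Sparc* one of 11.1, and *Dcn* was above *Sparc* in 3 of 7 tumors, so this pair was not ordered. *Fstl1*, with a median of 5.48 RPKM, was below *Sparc* and above *Thy1* in 7 of 7 tumors. *Thy1* at 3.23, *Ccdc80* at 2.31 and *Postn* at 2.21 changed places between tumors, as each was above the next in 4 of 7. *Ccdc80* was at 1.19 ± 0.13 RPKM (SD, n = 3) with Dnmt3a(+/+) BM and 4.37 ± 2.04 RPKM (SD, n = 4) with Dnmt3a(+/-) BM. On exonic length its order against *Postn* followed the groups, below it in each control and above it in each Dnmt3a(+/-)-BM tumor. In Dnmt3a(+/-)-BM replicate 1 the margin was small, with *Ccdc80* at 2.31 and *Postn* at 2.21 RPKM. The order of *Ccdc80* against *Thy1* did not follow the groups, as that tumor had *Thy1* at 4.03 RPKM. *Lum* at 0.687 and *Vcan* at 0.118 came next, each below the preceding gene in 7 of 7 tumors. *Mfap5* at 0.056 and *Fap* at 0.032 were last and not ordered. Taken over the longest protein-coding transcript instead, *Dcn* had a median of 39.6 and *Sparc* one of 18.2, so how close this pair lay depended on the length used. *Postn* then had a median of 6.01, which placed it above *Thy1* and *Ccdc80*, the latter at 2.43. The order of *Ccdc80* against *Postn* by group thus also depended on the length used.

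Among relatives of these genes, *Bgn* and *Fbn1* showed the same tumor apart. *Bgn* encodes biglycan, the nearest relative of decorin, and was at 7.93 to 9.62 CPM in the controls and at 9.46, 93.0, 12.8 and 9.92 CPM in the Dnmt3a(+/-)-BM tumors. Its log2 fold change was 1.86, and 0.35 without Dnmt3a(+/-)-BM replicate 2. *Fbn1*, the fibrillin of microfibrils, was at 2.22 to 2.58 CPM in the controls and at 19.7 CPM in Dnmt3a(+/-)-BM replicate 2, with a log2 fold change of 1.61, and 0.38 without it.

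*Sparcl1*, the relative of *Sparc*, did not share its pattern. It was at 2.60 CPM in Dnmt3a(+/+)-BM replicate 3 and between 15.6 and 39.6 CPM in the other 6 tumors, with a log2 fold change of 0.58. *Tgfbi*, the relative of *Postn*, had one of 0.30, and *Dpp4*, the relative of *Fap*, one of 0.28 that turned to -0.51 without Dnmt3a(+/-)-BM replicate 2. *Mfap2*, a microfibril protein like *Mfap5*, had one of 1.16 at 0.12 to 0.96 CPM. *Acan*, *Bcan* and *Ncan*, the relatives of *Vcan*, had at most 5 counts in any tumor. Adjusted p from edgeR was 0.486 or more for each relative tested.

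**Figure D4:**
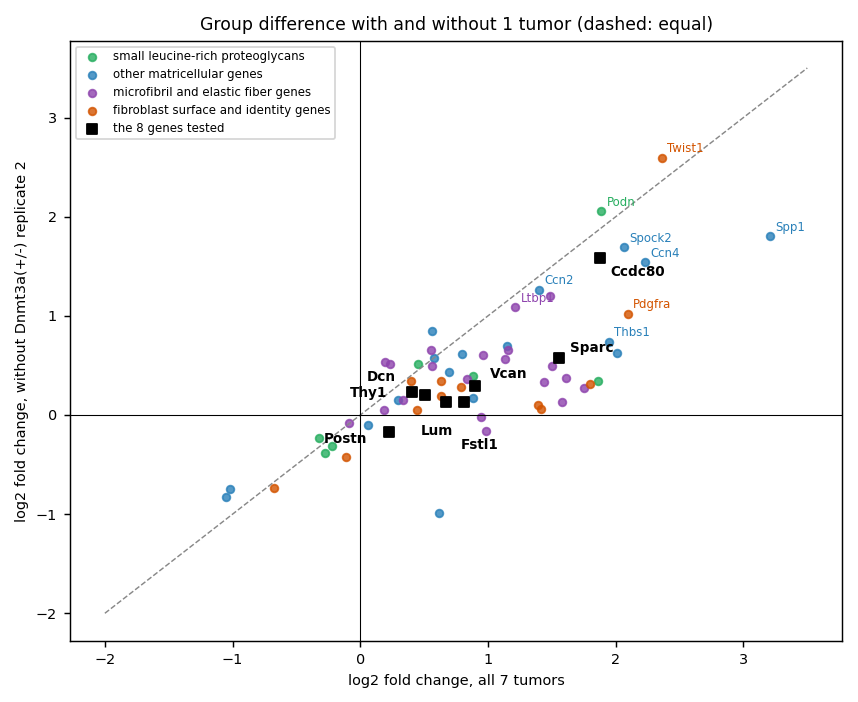
Log2 fold change over all 7 tumors (horizontal axis) and without Dnmt3a(+/-)-BM replicate 2 (vertical axis) for the 8 genes tested (black squares) and for 4 lists of related genes (colors), with a dashed line where both are equal. *Ccdc80* lies near the line at 1.88 and 1.58 beside *Ccn2* and *Spock2*, and *Sparc*, *Fstl1*, *Vcan* and *Lum* lie well below it.

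Among other matricellular genes, 5 of 17 tested had an unadjusted p under 0.05 and were higher with Dnmt3a(+/-) BM, and 0 were lower, where 5.83% and 5.20% of all genes were. The median log2 fold change of the 17 was 0.79, and 0.61 without Dnmt3a(+/-)-BM replicate 2. *Ccn2* encodes connective tissue growth factor and was at 10.3 to 12.7 CPM in the controls. Its CPM was 17.2, 40.6, 28.5 and 35.6 in the Dnmt3a(+/-)-BM tumors, all above the controls. Its log2 fold change was 1.40, with a standard error of 0.30, and went to 1.26 without replicate 2. *Spock2*, which encodes testican-2, a SPARC-family proteoglycan, was at 160 to 227 CPM in the controls and 401 to 1366 CPM in the Dnmt3a(+/-)-BM tumors. The difference was 2.06 on the log2 scale, with a standard error of 0.43, and went to 1.69 without replicate 2. For *Thbs1*, thrombospondin-1, the value of 1.95 went to 0.74 without replicate 2, whose CPM was 297. The rest of the group was at 41.0 to 55.6 CPM and the controls at 26.9 to 29.5 CPM. All 4 Dnmt3a(+/-)-BM tumors were thus above the controls for *Thbs1*. *Ccn4* had 2.23 and 1.54 without replicate 2. The fifth gene, *Spp1*, osteopontin, was named after its value was seen, with 3.21 and 1.80 without replicate 2. With edgeR the adjusted p of each was over 0.05. DESeq2 called *Spock2* (adjusted p = 0.000664), *Ccn2* (0.00376) and *Ccn4* (0.0358), and not *Spp1* (0.192). It gave no p for *Thbs1*.

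Of the other small leucine-rich proteoglycans, 1 of 7 tested had an unadjusted p under 0.05 and was higher, against 5.83% of all genes. *Podn*, podocan, was at 1.70 to 2.74 CPM in the controls and at 3.37, 5.99, 13.5 and 10.7 CPM in the Dnmt3a(+/-)-BM tumors, or 1.89 higher on the log2 scale (standard error 0.51). The highest tumor for *Podn* was replicate 3, not replicate 2, and the value was 2.06 without replicate 2. DESeq2 called *Podn*, at an adjusted p of 0.0118, and edgeR did not. The median of the 7 was 0.45.

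Over 20 microfibril and elastic fiber genes the median difference was 0.97 on the log2 scale, with 19 genes above 0 against 50.2% of all genes, and the median was 0.43 without Dnmt3a(+/-)-BM replicate 2. *Ltbp1*, which binds latent TGF-β, had 1.21 (standard error 0.33) and was higher in all 4 Dnmt3a(+/-)-BM tumors than in any control, as in 6.12% of all genes. DESeq2 called *Ltbp1*, at an adjusted p of 0.0337, and edgeR did not. *Eln*, elastin, had 1.48 (standard error 0.62) at 0.80 to 1.45 CPM in the controls. These were the 2 of the 20 genes with an unadjusted p under 0.05, both higher, against 5.83% of all genes. Genes of hyaluronan and of versican cleavage had a median of 0.051 over 8 genes, and 0 of the 8 had such a p.

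The label of fibroblast genes was checked against 13 surface and identity genes of that cell type. Their summed CPM was 128 to 220 with Dnmt3a(+/+) BM and was 180, 905, 192 and 271 in the Dnmt3a(+/-)-BM replicates, and 0 of the 13 were under 0.1 CPM in every tumor. In replicate 2 the largest parts of the sum were the collagen genes *Col3a1*, *Col1a1* and *Col1a2*, at 361, 239 and 195 CPM. The median log2 fold change over 12 tested genes was 0.71, and 0.23 without replicate 2, close to the values of the 8 genes here. Of the 12, 10 were above 0, against 50.2% of all genes, and *Twist2* (-0.67) and *Mme* (-0.11) were below. *Twist1* and *Pdgfra* had an unadjusted p under 0.05 from edgeR and were higher, 2 of 12 against 5.83% of all genes. *Pdgfra*, the platelet-derived growth factor receptor of fibroblasts, had 2.10, and 1.02 without replicate 2. *Twist1*, a mesenchymal transcription factor, had 2.36, and its highest value of 3.07 CPM was in replicate 3. *Col1a1* and *Col1a2*, the chains of collagen I, had 1.79 and 1.39, and 0.32 and 0.097 without replicate 2.

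Lists of genes used as markers of fibroblasts at different depths of the colon wall were also examined. In RNA of whole tumors such lists do not separate the cells. Adventitial fibroblast genes had a median of 0.0066 over 7 genes, among them *Col14a1* at 1.09 (standard error 0.40) and *Dpt* at -0.53 (standard error 0.46). Subepithelial fibroblast genes had a median of 0.97 over 7 genes, and 0.52 without Dnmt3a(+/-)-BM replicate 2. Of the 7, 6 were above 0, against 50.2% of all genes, among them *Foxl1* at 1.96 (standard error 0.81). The 7 genes summed to 79.7 to 293 CPM with Dnmt3a(+/+) BM and 94.8 to 159 CPM with Dnmt3a(+/-) BM. Most of that sum was *F3*, the gene below 0 (-0.81), at 51.6 to 282 CPM and 64.3 to 134 CPM. *F3* was highest in Dnmt3a(+/+)-BM replicate 3, where the epithelial sum was also highest at 39609 CPM. Which cells held *F3* was not tested. In each list 1 gene, *Col14a1* or *Foxl1*, had an unadjusted p under 0.05 from edgeR and was higher, 1 of 7 against 5.83% of all genes.

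**Figure D5:**
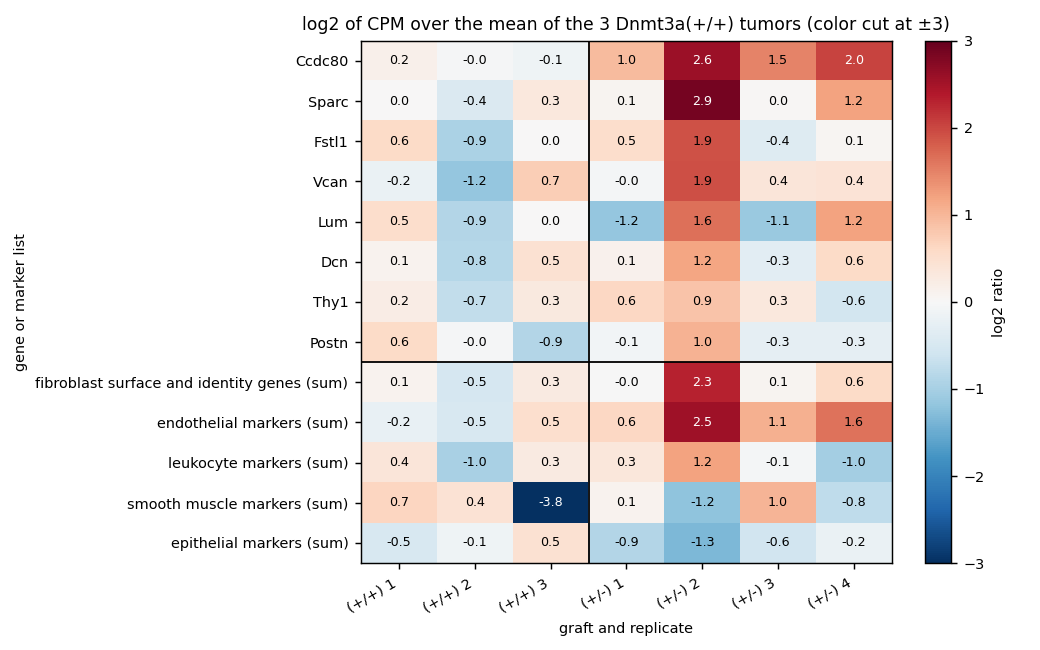
Log2 of the CPM in each tumor (columns) over the mean of the 3 Dnmt3a(+/+)-BM tumors for the 8 genes tested and for the summed CPM of 5 marker lists (rows), colored from blue (lower) to red (higher) with the value in each cell. *Ccdc80* is at 0.95 or more in all 4 Dnmt3a(+/-)-BM tumors and at most 0.16 in the controls. The endothelial sum is at 0.61 or more against at most 0.51, and the smooth muscle sum is -3.85 in Dnmt3a(+/+)-BM replicate 3.

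Other cell types differed between tumors in their own ways. In Dnmt3a(+/-)-BM replicate 2, where 9 of the 10 genes were highest, the fibroblast identity sum was at 2.32 and the endothelial sum at 2.55 on the log2 scale over the control mean. The leukocyte sum was at 1.22 there, and the epithelial sum at -1.35, the lowest of the 7 tumors. Smooth muscle markers summed to 43.2 CPM in Dnmt3a(+/+)-BM replicate 3 and to 271 to 1260 CPM in the other 6 tumors. The median log2 fold change of the 9 muscle markers was 0.15 and that of 8 leukocyte markers 0.15. Markers of mesothelium, glia, neurons and adipocytes were low, with *Wt1* listed at 0 counts in every tumor, except *Msln*, which ran from 3.60 to 112 CPM. How far these cell types took part in the differences above was not tested.

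Across the 7 tumors the 8 genes ran together, with Pearson's r of log2 CPM between 0.10 and 0.90 and a median of 0.66 over the 28 pairs. Without Dnmt3a(+/-)-BM replicate 2 the median r was 0.33, and 8 of the 28 pairs were below 0. The closest pair was *Dcn* and *Vcan*, with r = 0.90 over 7 tumors and 0.80 over 6. These are descriptions over few tumors that share experiments and library scaling.

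Among 12266 other genes, those most like the mean profile of the 8 were *Ms4a6d*, *Serpinh1*, *Cfp*, *Aebp1* and *Spon1*, with r from 0.98 to 0.99 over the 7 tumors. Without Dnmt3a(+/-)-BM replicate 2 their r was between 0.895 and 0.958, and they ranked between 10 and 59. *Serpinh1* encodes the collagen chaperone HSP47, *Aebp1* a collagen-binding matrix protein, *Spon1* the matrix protein F-spondin, *Cfp* the complement protein properdin, and *Ms4a6d* a membrane protein of macrophages. For single genes, *Grem1*, a secreted antagonist of BMP signals, was the most like *Postn*, with r = 0.99 over 7 tumors and also 0.99 without Dnmt3a(+/-)-BM replicate 2. The most alike for *Fstl1* was *Ppic* and for *Sparc* it was *Ier3*, with r of 0.98 in each. For *Ccdc80* it was *Diexf*, with r = 0.99, and 266 genes had an r over 0.9 with *Ccdc80*, more than with any other of the 8. The genes most like *Dcn*, *Lum*, *Vcan* and *Thy1* were *Gkap1*, *Picalm*, *Sipa1* and *Ddx58*, with r from 0.96 to 0.98.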

How the data were processed

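Polyadenylated RNA of 7 whole colon tumors was measured. The authors' pipeline ran Trimmomatic on the reads, STAR for alignment to mm10 and RSEM for estimated counts per gene. The annotation release is not given in the sources used here. The deposited values are estimated counts (expected counts) in whole numbers, without normalization, with 1 column per tumor, and 0 columns were left unused. Symbols were matched for 42462 of 43346 Ensembl identifiers, and the rest held 0.104% of all counts. Positions and exonic lengths are those of GENCODE M21 on GRCm38. No exon of the 10 genes overlaps an exon of another annotated gene.

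The comparison of the groups used the quasi-likelihood test of edgeR 4.0.16 (R 4.3.3) after TMM scaling and filterByExpr, without covariates and with Benjamini-Hochberg adjustment over 15810 genes. A call needed both an adjusted p under 0.05 and a log2 fold change over 1 in size. DESeq2 1.42.0 was an alternative, as were other scalings, no filter, the experiment or the replicate number as a further term, robust dispersion, BMT18 alone, and each tumor left out. Log2 CPM used a prior count of 2, and single genes an exact permutation test over the 35 ways to place 3 of 7 tumors. RPKM is CPM per kilobase of exon. The fits were tested on simulated data. The floor of counts covers counting error only, whereas the standard errors from edgeR and the SDs include the spread between tumors. The labels call the tumors biological replicates.

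The 10 genes and the lists of related genes and markers were chosen with earlier results of these data known, and no p was adjusted over a list alone. Named besides the 10 genes were fixed relatives (*Bgn*, *Sparcl1*, *Tgfbi*, *Mfap2*, *Fbn1*, *Dpp4*, *Bcan*, *Ncan*, *Acan*), from each list at most 4 genes with the lowest unadjusted p, the 5 genes with the highest r to the mean profile and the 1 gene with the highest r to each of the 8 (mean log2 CPM of at least 1), and *Dnmt3a*. *Lum*, *Dcn*, *Kera* and *Epyc* were set side by side after their values were seen. *Myh11*, *Spp1*, *Wt1*, *Msln*, *F3*, *Col3a1*, *Twist2* and *Mme* were also named after their values were seen.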

Additional observations from a re-analysis of the deposited data

Results flagged for a closer look

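Among the 4 Dnmt3a(+/-)-BM tumors, replicate 2 lay far from the other 3 in 5 of the 17 CPM values examined, by a gap past Dixon's 95% critical value. Chance gives such a gap in about 1 in 20 groups, and all 5 come from the same tumor. Its CPM was 5.05 for *Vcan* and 42.1 for *Postn*. Among the relatives it was 93.0 for *Bgn*, 19.7 for *Fbn1* and 27.3 for *Dpp4*, each the highest of the group. The group difference of *Vcan* was opposite in the 2 experiments, with an interaction of -2.21 on the log2 scale (BMT8 minus BMT18), which edgeR's adjusted p of 1.00 did not pass. *Dcn*, *Fstl1* and *Thy1* also changed sign between the experiments, with interactions of -1.32, -1.54 and -1.27.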

How the results depend on the processing

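DESeq2 called 299 genes where edgeR called 0, and between 63 and 695 with each tumor left out. With edgeR the number was 0 in each of its other fits too, and the cause of the gap was not tested. The number of the 10 genes with an unadjusted p under 0.05 was 2 in place of 1 with DESeq2, with library size only and with no filter on low counts, where *Sparc* joined *Ccdc80*. With edgeR it ran from 1 to 2 with each tumor left out, with *Sparc* joining without Dnmt3a(+/-)-BM replicate 1 or replicate 3, and with DESeq2 from 1 to 3. The median log2 fold change of the genes tested with edgeR ran from 0.22 to 1.01 with each tumor left out. Library size only moved the median of all genes to 0.21 and that of the 8 genes to 1.02. The likeness of *Ms4a6d* to the mean profile was 0.96 without Dnmt3a(+/-)-BM replicate 2.

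With the replicate number as a block, the median was 0.70, *Ccdc80* had a log2 fold change of 1.67, *Sparc* 0.92, and *Lum* turned to -0.22. The deviations of same-numbered tumors from their group means in log2 CPM correlated at 0.568, 0.071 and -0.038. For differently numbered tumors these values ran from -0.466 to 0.489. Only replicate 1 was outside that range, so the numbers did not pair the tumors as a rule. *Postn* ran from -0.18 to 0.62 with each tumor left out. It turned to -0.070 without Dnmt3a(+/+)-BM replicate 3 (-0.051 with DESeq2) and to -0.18 without Dnmt3a(+/-)-BM replicate 2 (-0.20 with DESeq2). *Ccdc80* was past both thresholds with DESeq2 in all 7 fits with a tumor left out. Those fits, the coding-transcript length and the interaction were chosen after seeing the data. No other log2 fold change of the 8 genes changed sign or was called. *Fap* and *Mfap5*, at 0 to 25 counts per tumor, were too low for a difference to be seen.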
